A study of Mus musculus with 9 samples.

Results

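Proximal T cell receptor signalling is represented here by 8 genes, namely the kinase genes Lck, Fyn, Zap70 and Prkcq, the phospholipase gene Plcg1 and the adaptor genes Lat, Lcp2 and Themis. They were taken by symbol from a table of 46078 genes, in which each of the 8 symbols named 1 row, and all 8 passed the filter on low counts. The transcript 3′ ends of 9 libraries were sequenced: 6 of lymphoma cells that arose in the thymus under induced MYCN, called lymphoma 34, 53, 56, 70, 72 and 86 after their labels, and 3 of splenic CD4+ T cells, called CD4 1, 2 and 3. All came from C57BL/6J mice. The way MYCN was induced, the age of the animals and any treatment are not given in the sources used here, nor is it said whether each library came from a separate animal, so that p-values measure only the spread between these libraries. Read totals in genes were 11170704 to 15769679 per lymphoma and 8099960 to 10808828 per CD4 library, and the 8 genes had between 110 and 9959 counts in any library.

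In a T cell, Lck, a Src-family kinase held by the CD4 and CD8 coreceptors, phosphorylates the CD3 and zeta chains of an engaged receptor, and the related kinase Fyn can do the same. Zap70 docks on the phosphorylated chains and phosphorylates the membrane adaptor Lat and the cytosolic adaptor Lcp2, better known as SLP-76, which together assemble the phospholipase Plcg1. Plcg1 makes the second messengers that release calcium and activate Prkcq, the theta isoform of protein kinase C, which leads to NF-kB. Themis binds the Lat complex through Grb2 and is needed for the selection of thymocytes.

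Before the results, the labels were checked against marker genes. Summed over the chains Cd3d, Cd3e, Cd3g and Cd247, T cell receptor signalling chains stood at 799 to 1013 CPM (counts per 1000000 counts in genes, scaled by the TMM method) in lymphoma and at 885 to 1010 CPM in CD4, and none of the 4 chains passed the test. Of all 10 listed T cell markers, 2 were lower in lymphoma by the test described below and 0 were higher. The 2 were Cd4 and Cd2 (log2 fold change -1.15, edgeR adjusted p 0.00874 for Cd2). Thy1 did not pass (0.83, edgeR adjusted p 0.069), though every lymphoma exceeded every CD4 library. Cd4 was at 6.03 to 71.8 CPM in lymphoma and at 199 to 263 CPM in the libraries labelled CD4. The CD4 libraries also held Cd8a at 25.6 to 31.8 CPM and the 14 listed B cell markers at a summed 2325 to 2461 CPM, against 24.4 to 69.4 CPM in lymphoma. All 14 B cell markers were lower in lymphoma by the test described below, as were 7 of 13 myeloid, 4 of 7 NK cell and 6 of 6 plasmacytoid dendritic cell markers, while the NK marker Gzma was higher. Of these markers only Ncr1, of NK cells, was at 0 in all lymphomas. Dcn was higher in lymphoma, as 1 of 5 tested stromal and endothelial markers, of which 1 was lower. Prss16, 1 of 2 tested thymic epithelial markers, and Hemgn, 1 of 6 tested erythroid markers, were also higher. Whether the mixture of cells in the CD4 or the lymphoma libraries had a part in the differences below was not tested. Lymphoma 53 stood apart from the other 5, with pairwise correlations of log2 CPM across tested genes of 0.884 to 0.900 where the others reached 0.939 to 0.980, and with Cd8a at 29.4 CPM where the others had at most 1.53. Xist was at 4.65 to 11.2 CPM in lymphoma and at 492 to 581 CPM in CD4, so sex, tissue and group cannot be told apart.

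The starts of 4 of the genes are shown because they differ in how their RNA behaved: Zap70 was the only one that was higher in lymphoma, Lck and Lat did not pass the test, and Themis was lower. Each line gives the 250 bases before a RefSeq gene start on GRCm38.p6, read 5′ to 3′ on the gene's strand, with capitals marking 5 motifs searched on both strands: CACGTG (the E-box of MYC and MAX), CAGGTG (the E-box of E proteins), AGGAAG (ETS), TGTGGT (RUNX) and CTTTGA (TCF and LEF). The windows are chr1:36761548-36761797 on the plus strand for Zap70, chr4:129573642-129573891 on the minus strand for Lck, before the upstream one of its starts, chr7:126369569-126369818 on the minus strand for Lat and chr10:28668110-28668359 on the plus strand for Themis.
Zap70: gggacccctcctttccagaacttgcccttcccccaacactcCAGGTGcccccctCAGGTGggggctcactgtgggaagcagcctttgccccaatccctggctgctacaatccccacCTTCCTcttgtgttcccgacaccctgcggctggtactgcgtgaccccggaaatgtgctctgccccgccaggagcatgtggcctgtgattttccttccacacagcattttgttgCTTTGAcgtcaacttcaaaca
Lck: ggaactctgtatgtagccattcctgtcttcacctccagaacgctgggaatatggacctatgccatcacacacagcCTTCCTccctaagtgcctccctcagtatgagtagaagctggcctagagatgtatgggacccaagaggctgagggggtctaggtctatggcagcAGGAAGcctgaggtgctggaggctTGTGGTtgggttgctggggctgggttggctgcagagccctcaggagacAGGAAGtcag
Lat: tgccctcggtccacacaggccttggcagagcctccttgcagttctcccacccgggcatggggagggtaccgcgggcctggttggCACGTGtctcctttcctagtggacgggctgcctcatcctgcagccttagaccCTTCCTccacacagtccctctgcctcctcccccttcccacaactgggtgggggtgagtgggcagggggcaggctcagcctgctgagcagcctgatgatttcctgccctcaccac
Themis: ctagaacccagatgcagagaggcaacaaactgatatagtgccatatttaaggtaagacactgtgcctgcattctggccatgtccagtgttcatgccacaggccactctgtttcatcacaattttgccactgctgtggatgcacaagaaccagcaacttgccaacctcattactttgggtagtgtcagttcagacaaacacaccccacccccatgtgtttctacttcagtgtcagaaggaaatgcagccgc
The Zap70 window held CAGGTG on 2 occasions, AGGAAG (as its reverse complement) and CTTTGA. The Lck window held AGGAAG on 3 occasions and TGTGGT, the Lat window held CACGTG and AGGAAG, and the Themis window held none of the 5. Over all 12 windows of the 8 genes, CACGTG was found in 1, CAGGTG in 4, AGGAAG in 7, TGTGGT in 2 and CTTTGA in 3. Among 32526 distinct windows of the same length over all genes the shares were 6.04%, 17.3%, 29.6%, 13.96% and 13.9% in the same order, and no motif overlapped another in the windows shown. The windows also differed in base composition, with 30 CpG dinucleotides in that of Prkcq and 21 each in those of Fyn and Plcg1, against 1 in the windows shown for Lck and Themis, 0 in that of Lcp2 and a median of 6 over all windows. The windows of Prkcq and Fyn lie within the gene spans given below, and all 250 bases of the Prkcq window are annotated as exon. These matches describe letters and not binding.

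Of the 8 genes, 1 was higher and 4 were lower in lymphoma than in CD4 (edgeR's quasi-likelihood test, Benjamini-Hochberg adjusted p under 0.05 over all 15401 tested genes). Prkcq fell most, followed by Fyn, Themis and Plcg1, while Zap70 rose, and Lck, Lat and Lcp2 did not pass the test. Among all tested genes 46.6% were called, 24.7% higher and 21.9% lower, against 62.5% of the 8 genes, and nothing particular to the 8 is read from that share. Without lymphoma 53 the counts were 1 higher and 6 lower, in a fit that called 53.6% of tested genes, 27.7% higher and 25.9% lower. The median log2 fold change of the 8 genes was -0.64, and that of all tested genes was 0.04. The same 5 genes had libraries that did not overlap between the groups, as did 44.9% of tested genes, 22.6% with lymphoma higher and 22.3% with it lower. In these bulk samples, fewer cells of a type and less RNA per cell cannot be told apart.

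**Figure D1:**
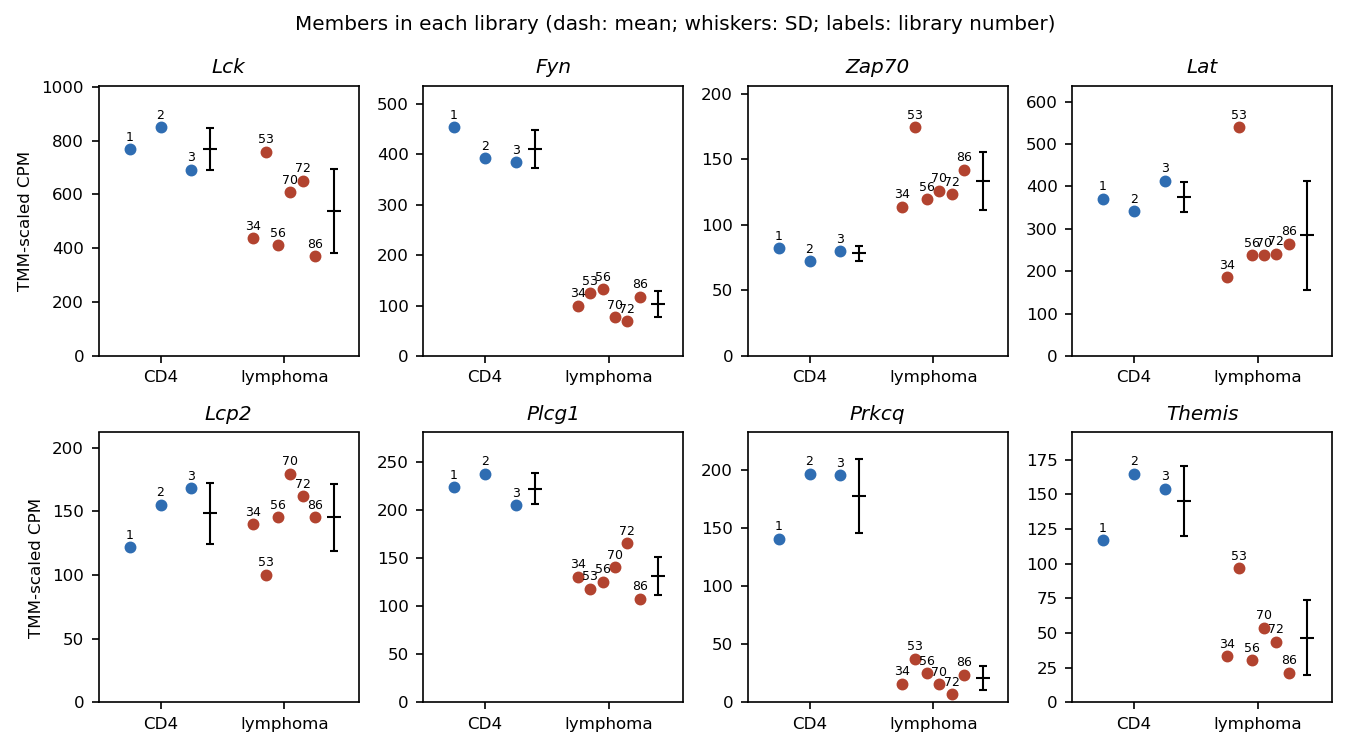
TMM-scaled CPM (vertical axes, from 0) of the 8 genes in each of 3 CD4 libraries (blue) and 6 lymphoma libraries (red), labelled by library number, with the group mean (dash) and SD (whiskers). The groups are apart for Fyn, Zap70, Plcg1, Prkcq and Themis and overlap for Lck, Lat and Lcp2, and lymphoma 53 is the highest lymphoma for Lck, Zap70, Lat, Prkcq and Themis.

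The Src-family kinases came first in the order of the pathway. Lck (ENSMUSG00000000409), a protein-coding gene like the other 7, lies at 129548344 to 129573641 on the minus strand of chromosome 4 (GRCm38 in GENCODE M21, as for all gene positions here). It had 767, 850 and 692 CPM in CD4 1, 2 and 3. In lymphoma it ranged from 369 CPM in lymphoma 86 through a median of 523 to 759 CPM in lymphoma 53. Lymphoma 53 lay within the CD4 range, and the other 5 lay below it, from 369 to 651 CPM. The means were 540 ± 155 CPM (SD, n = 6) and 769 ± 79.0 CPM (SD, n = 3), with a log2 fold change of -0.51 (SE 0.223, 95% interval -1.0 to -0.02) and an edgeR adjusted p of 0.0796. Without lymphoma 53 the change was -0.64 at an edgeR adjusted p of 0.0122, and Lck also passed in 4 other alternatives, so its side of the threshold depended on the processing as well as on that library.

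Fyn (ENSMUSG00000019843), at 39368855 to 39565381 on the plus strand of chromosome 10, had 454, 392 and 385 CPM in CD4 1, 2 and 3. Its lymphoma values ran from 68.5 CPM in lymphoma 72 through a median of 109 to 132 CPM in lymphoma 56, so the highest lymphoma had far less than the lowest CD4 library. Fyn fell by 1.99 on the log2 scale (SE 0.208, edgeR adjusted p 1.62e-05), a 3.97-fold lower level, and was lower in 6 of 6 lymphomas. Lymphoma 53 did not stand out for Fyn, at 125 CPM. The lowest Fyn values were those of lymphomas 70 and 72, at 76.6 and 68.5 CPM, which were also the most alike pair of libraries over all genes (r = 0.980).

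Zap70 (ENSMUSG00000026117), the kinase that docks on phosphorylated receptor chains, lies at 36761798 to 36782818 on the plus strand of chromosome 1. It had 82.1, 72.02 and 80.1 CPM in CD4 1, 2 and 3 and from 114 CPM in lymphoma 34 through a median of 125 to 174 CPM in lymphoma 53. Every lymphoma exceeded every CD4 library, and within lymphoma the spread was narrow, with a coefficient of variation of 16.7%, or 8.43% without lymphoma 53. The log2 fold change was 0.77 (SE 0.173, edgeR adjusted p 0.0033), a 1.71-fold rise. Zap70 has a GC content of 59.6% in its longest transcript, the highest of the 8 genes. When each library's dependence on GC content and transcript length was taken out, its change was 0.36 with an edgeR adjusted p of 0.0568, which ended the call. Here and below, GC content and length are those of the whole longest transcript, while the transcript 3′ ends were sequenced.

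**Figure D2:**
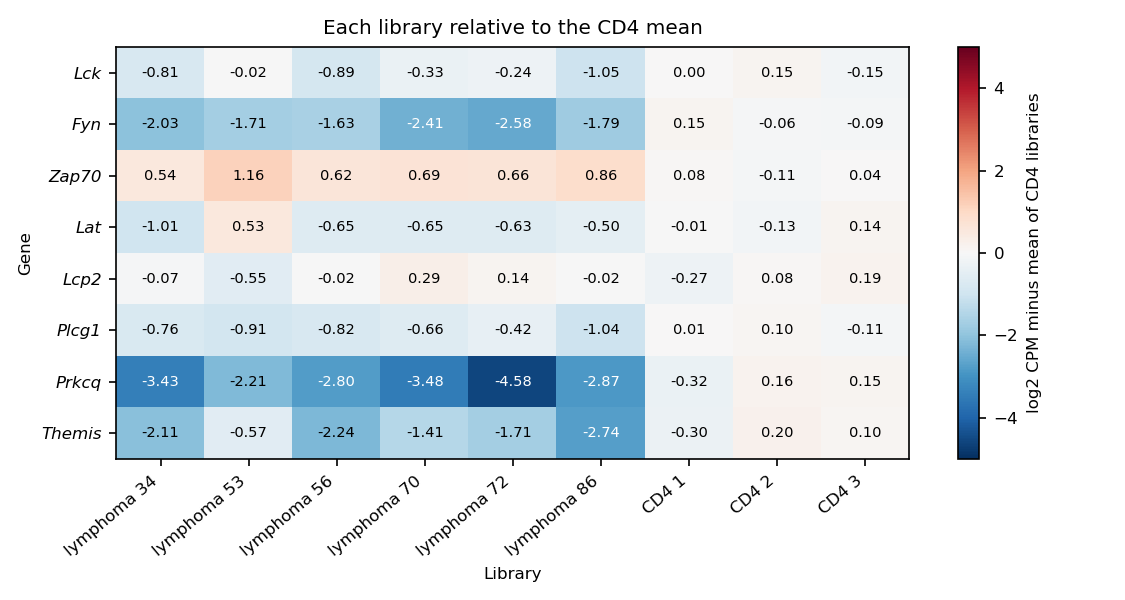
Log2 CPM of each gene (rows) in each library (columns) minus the mean of the 3 CD4 libraries, with the value printed in each cell; red is higher and blue lower. Zap70 is above the CD4 mean in all 6 lymphomas and Fyn, Plcg1, Prkcq and Themis are below it in all 6, while Lat is above it in lymphoma 53 only.

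The adaptors that Zap70 phosphorylates differed less between the groups. Lat (ENSMUSG00000030742), at 126363824 to 126369570 on the minus strand of chromosome 7, had 371, 341 and 414 CPM in CD4 1, 2 and 3. The 5 lymphomas other than 53 had 185 to 265 CPM, below every CD4 library, and lymphoma 53 had 540 CPM, above every CD4 library. Over all 6 the log2 fold change was -0.40 (SE 0.284, 95% interval -1.02 to 0.22, edgeR adjusted p 0.275). Without lymphoma 53 Lat was lower by 0.69 on the log2 scale at an edgeR adjusted p of 0.0011, and after correction for GC content and length it was lower by 0.74 at 0.0236. Lymphoma 53 and the other 5 thus lay on opposite sides of the CD4 libraries.

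Lcp2 (ENSMUSG00000002699), at 34046920 to 34092295 on the plus strand of chromosome 11, had 122, 155 and 168 CPM in CD4 1, 2 and 3. The lymphomas ran from 100 CPM in lymphoma 53 through a median of 145 to 180 CPM in lymphoma 70, so both groups covered nearly the same range. The log2 fold change was -0.03 (SE 0.190, edgeR adjusted p 0.913), with a 95% interval of -0.44 to 0.38, and its sign changed in 6 alternatives without passing the test. Of the 8 genes, only Lcp2 had its lowest lymphoma value in lymphoma 53. Its last 1000 bases share 267 exon bases with the opposite-strand gene 4930469K13Rik, which fell by 1.64 on the log2 scale (edgeR adjusted p 0.00328), and reads from such a stretch cannot be assigned without strand, whose setting is not given in the sources used here.

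Plcg1 (ENSMUSG00000016933), the phospholipase recruited to Lat, lies at 160731300 to 160775760 on the plus strand of chromosome 2. It had 224, 237 and 205 CPM in CD4 1, 2 and 3, and in lymphoma it ranged from 108 CPM in lymphoma 86 through a median of 128 to 165 CPM in lymphoma 72. All 6 lymphomas lay below all 3 CD4 libraries. Plcg1 fell by 0.76 on the log2 scale (SE 0.157, edgeR adjusted p 0.00199), or 1.69-fold. Its exons overlap those of the opposite-strand genes Zhx3 over 379 bases and Gm27206 over 248 bases, none of them in the last 1000 bases of Plcg1, and Zhx3 fell too, by 1.08.

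Prkcq (ENSMUSG00000026778), which links diacylglycerol to NF-kB, lies at 11172108 to 11301222 on the plus strand of chromosome 2. CD4 1, 2 and 3 had 141, 197 and 195 CPM. Lymphomas 34, 53, 56, 70, 72 and 86 had 16.2, 37.7, 25.1, 15.6, 7.19 and 23.9 CPM, the last but one from 110 counts. The highest lymphoma, 53, was thus still well under the lowest CD4 library, and the lymphomas differed 5.24-fold among themselves. Prkcq fell by 3.09 on the log2 scale (SE 0.378, edgeR adjusted p 6.57e-05), or 8.49-fold, and its log2 fold change lay between -3.34 and -2.81 over all 19 alternatives.

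Themis (ENSMUSG00000049109), at 28668360 to 28883818 on the plus strand of chromosome 10, had 117, 165 and 154 CPM in CD4 1, 2 and 3. Lymphomas 34, 53, 56, 70, 72 and 86 had 33.2, 96.9, 30.3, 53.9, 43.7 and 21.3 CPM. Lymphoma 53 came close to the lowest CD4 library without reaching it, and the coefficient of variation within lymphoma was 58.2%, the largest of the 8 genes. Themis fell by 1.64 on the log2 scale (SE 0.380, edgeR adjusted p 0.00442), or 3.12-fold, and by 2.0 without lymphoma 53. Its longest transcript has 38.5% GC, the lowest of the 8, and after correction for GC content and length its change was -1.01 with an edgeR adjusted p of 0.0965, which ended the call.

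**Figure D3:**
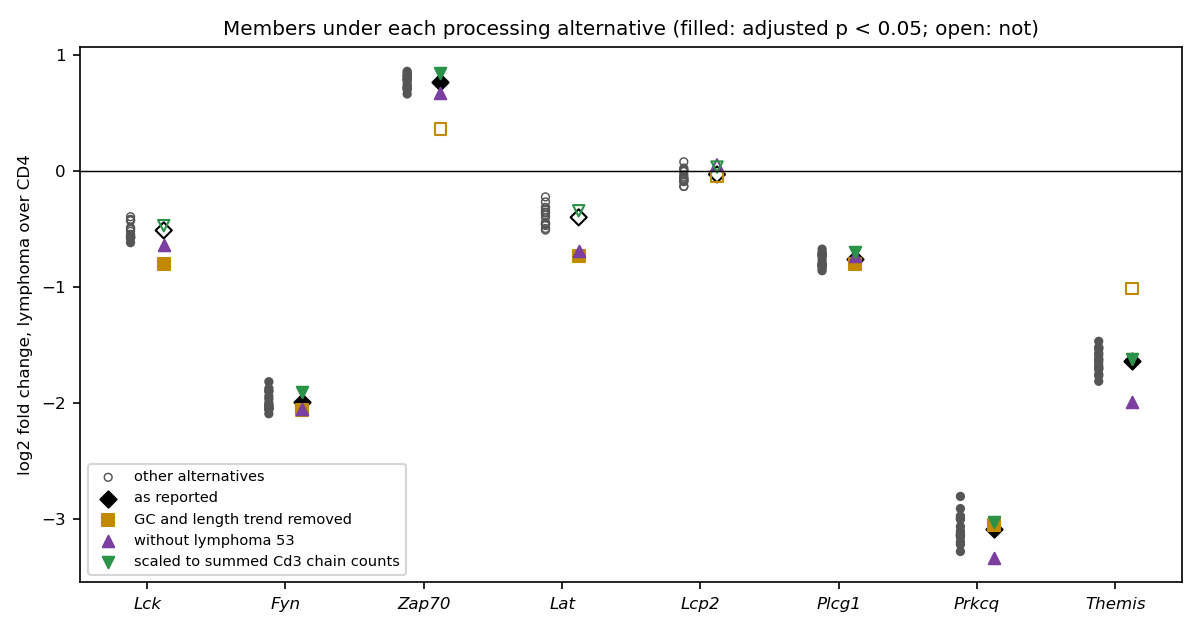
Log2 fold change of each gene (vertical axis, lymphoma over CD4) as reported (black diamond) and under 19 processing alternatives, with filled symbols at an adjusted p under 0.05 and open symbols otherwise. Correcting for GC content and length leaves Zap70 at 0.36 and Themis at -1.01, both open, while Fyn, Plcg1 and Prkcq stay filled under all 19.

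Scaling each library to its summed Cd3d, Cd3e, Cd3g and Cd247 counts, in place of all genes, was added after the data were seen. The summed counts were close between the groups, and the scaling moves all genes of a library alike, so it bears on the scale of the values and not on RNA from other cells. The 5 genes that passed did so here too, with Zap70 at 0.84, Plcg1 at -0.70, Themis at -1.62, Fyn at -1.91 and Prkcq at -3.02 on the log2 scale. Lck (-0.47) and Lat (-0.34) stayed on the other side of the threshold. This scaling moved the median of all tested genes from 0.04 to 0.11.

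The lymphomas were not alike in their pattern. Lymphoma 53 had the highest level of 5 of the 8 genes among lymphomas (Lck, Zap70, Lat, Prkcq and Themis) and the lowest of Lcp2. Lymphoma 86 was the lowest for Lck, Plcg1 and Themis. Among the 5 lymphomas other than 53, the pair with the most Lck, 70 and 72 (609 and 651 CPM), had the least Fyn and Prkcq, and had the most Themis, Plcg1 and Lcp2. In lymphoma 53, too, Lck was high, but with Fyn near the upper end of the lymphoma range.

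Ratios of a gene to a relative within a library are free of library scaling, and 8 such ratios were compared by an exact two-sided permutation test. With 84 ways to label the libraries, the test can give no p below 0.0238. A ratio's own size depends on the capture of each transcript, so only its change between groups is read. The Fyn to Lck ratio, in log2 CPM, was -0.76, -1.12 and -0.85 in CD4 1, 2 and 3 and ran from -3.25 in lymphoma 72 to -1.64 in lymphoma 56. The groups did not overlap, and the mean was lower in lymphoma by 1.47 log2 units (exact permutation p = 0.0238, Benjamini-Hochberg adjusted 0.0272 over the 8 ratios), and lower in 6 of 6 lymphomas than in any CD4 library.

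Protein kinase C isoforms moved in different directions. Prkch, which encodes the eta isoform, had 98.4, 66.3 and 86.9 CPM in CD4 1, 2 and 3 and 122 to 220 CPM in lymphoma, without overlap, and rose by 1.01 on the log2 scale (SE 0.207, edgeR adjusted p 0.00186). The Prkch to Prkcq ratio was higher in lymphoma by 4.23 log2 units, from -1.08 ± 0.531 (SD, n = 3) to 3.15 ± 0.928 (SD, n = 6). Prkcb, the beta isoform, fell by 0.90 (edgeR adjusted p 0.0264), less than Prkcq, and the Prkcb to Prkcq ratio was higher by 2.23 log2 units. Both ratios had an exact permutation p of 0.0238, adjusted to 0.0272, and neither overlapped between the groups. Of the 7 listed isoforms other than Prkcq, only Prkch was higher, 3 were lower (Prkcb, Prkcd and Prkce) and 3 did not pass. Among all tested genes 24.7% were higher and 21.9% lower. Prkce, the epsilon isoform, fell by 4.17 (SE 0.460), more than Prkcq.

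Several relatives that serve mainly in other lineages were scarce in lymphoma. Syk, the relative of Zap70 in B cells and early thymocytes, had 89.96 to 95.1 CPM in CD4 and 0.917 to 7.28 CPM in lymphoma, and the Syk to Zap70 ratio was lower by 5.70 log2 units. Blnk, the B cell counterpart of Lcp2, fell by 6.13 (SE 0.271), to only 10 to 24 counts per lymphoma. Its ratio to Lcp2 was lower by 5.93. Themis2 to Themis was lower by 2.92 log2 units, and each of these 3 ratios had an exact permutation p of 0.0238, adjusted to 0.0272. Plcg2 to Plcg1 was lower by 1.53 log2 units at an exact permutation p of 0.0476, also after adjustment. That call was lost when lymphoma 53, 56, 70, 72 or 86 was left out (adjusted exact permutation p 0.0714 each), and its ranges overlapped, since lymphoma 34 had -3.13 and CD4 2 had -3.21. Lat2 had 0 counts in all lymphomas and 10, 5 and 28 counts in CD4 1, 2 and 3. Its CD4 mean, raised by CD4 3, was 6.43-fold above a floor of 3 counts per lymphoma library. With all lymphomas at 0 counts, its ratio to Lat is not read. These relatives moved with the B cell markers, whose summed level was 2325 to 2461 CPM in CD4 and 24.4 to 69.4 CPM in lymphoma, and with 7 of 13 myeloid markers, and the part of such cells in the ratios was not tested.

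**Figure D4:**
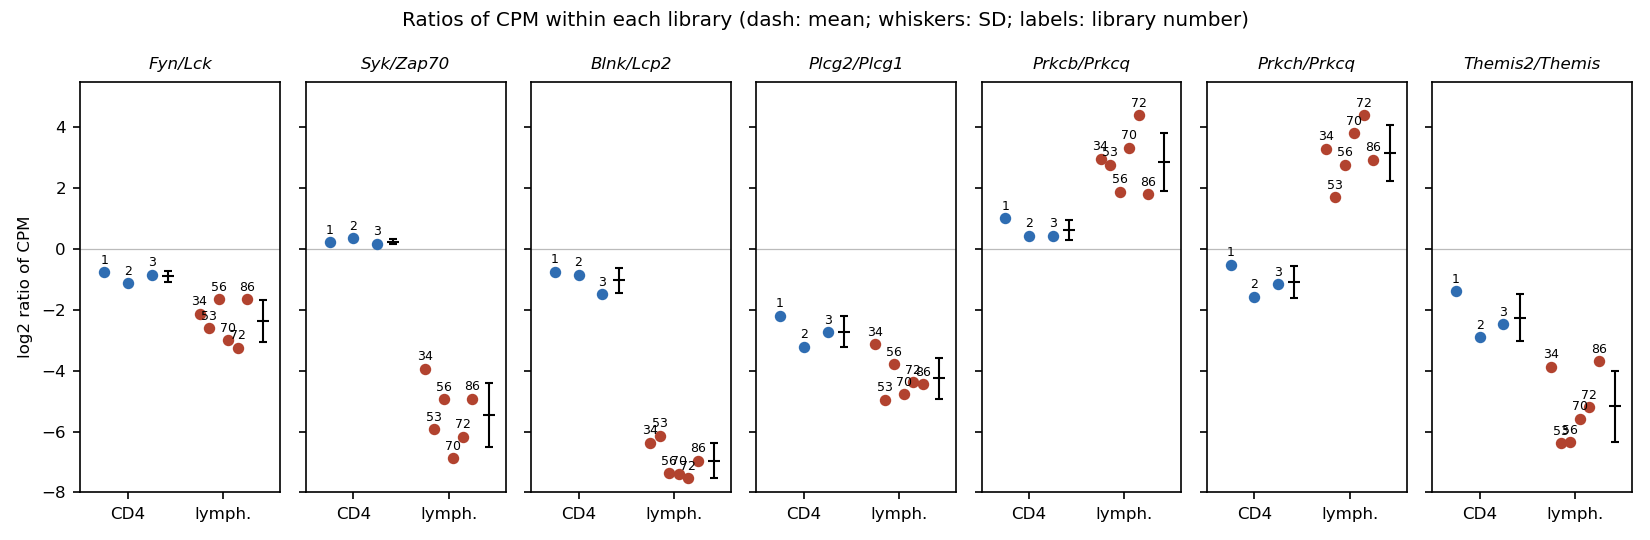
Log2 ratio of CPM (vertical axis, shared by all panels) for 7 pairs of related genes in each CD4 (blue) and lymphoma (red) library, labelled by number, with the group mean (dash) and SD (whiskers). Fyn to Lck, Syk to Zap70, Blnk to Lcp2 and Themis2 to Themis are lower and Prkcb and Prkch to Prkcq higher in every lymphoma than in every CD4 library, while Plcg2 to Plcg1 overlaps through lymphoma 34 and CD4 2.

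Over all listed relatives, 1 of 17 tested genes was higher (Prkch) and 11 were lower, with a median log2 fold change of -1.63, where 24.7% of all tested genes were higher and 21.9% lower. Besides Blnk, the largest falls were those of Blk, a Src-family kinase of B cells (-6.70, SE 0.512, edgeR adjusted p 1.62e-06), and Themis2 (-4.75, SE 0.479, edgeR adjusted p 1.22e-05). In lymphoma Blk had 0 to 9 counts and Themis2 3 to 33 counts, in part at or under the floor of 3 counts. The sizes of these falls thus rest on few counts. Of 6 other Src-family genes 4 were lower. Src and Yes1, at most 1.74 and 3.02 CPM in any library, did not pass the test (edgeR adjusted p 0.824 and 0.322).

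Of 35 other activating genes of the proximal pathway, 34 were tested in edgeR and 21 were lower, with a median log2 fold change of -1.20. The called share was 61.8%, all of it lower, in a list chosen with earlier results of these data known. Among all tested genes 46.6% were called, 24.7% higher and 21.9% lower. None was higher by edgeR, DESeq2 or limma voom (0 of 34), and 0 were higher at an unadjusted p under 0.05. Lime1 had 0 counts in all libraries. The 4 CD3 and zeta chains had log2 fold changes of -0.39 to 0.17 and did not pass. The kinase genes Txk and Tec were lower, as were Bcl10 and Malt1, which join Prkcq to NF-kB, the 3 receptors for inositol trisphosphate, the calcium entry genes Stim1 and Orai1, and Fyb and Skap1, which couple Lcp2 to adhesion. Txk fell most, by 5.40 (SE 0.729, edgeR adjusted p 0.000274), from 269, 376 and 421 CPM in CD4 1, 2 and 3 to 2.77 to 5.26 CPM in 5 lymphomas and 29.7 CPM in lymphoma 53. Without lymphoma 53, Txk fell by 6.38. Malt1 fell by 2.29 (SE 0.223, edgeR adjusted p 9.64e-06). Ptprc, the phosphatase CD45 that primes Lck, fell by 2.13 (SE 0.147, edgeR adjusted p 7.59e-07) with 2389 ± 149 CPM (SD, n = 3) in CD4 and 548 ± 81.97 CPM (SD, n = 6) in lymphoma. Ptprc is made by all white blood cells, and the summed B cell markers stood at 2325 to 2461 CPM in CD4 and 24.4 to 69.4 CPM in lymphoma; their part in the fall of Ptprc was not tested. Vav1, Was and Grb2 did not pass (edgeR adjusted p 0.816, 0.427 and 0.284).

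Of 23 tested genes that restrain the pathway, 1 was higher and 8 were lower, with a median log2 fold change of -0.14. With both directions together, the called share of 39.1% was near the 46.6% of all tested genes. By direction, 24.7% of all tested genes were higher and 21.9% lower. Ubash3b, a phosphatase that acts on Zap70 and Syk, rose by 1.24 (SE 0.244, edgeR adjusted p 0.00142), with 89.99 to 95.6 CPM in CD4, 119 CPM in lymphoma 53 and 203 to 285 CPM in the other lymphomas. Dgka, a diacylglycerol kinase, fell by 2.77 (SE 0.272, edgeR adjusted p 1.03e-05), Pag1, the membrane anchor of the Lck inhibitor Csk, by 1.99 (SE 0.158, edgeR adjusted p 2.12e-06), and Cblb, a ubiquitin ligase, by 1.86 (SE 0.324, edgeR adjusted p 0.000679). Csk itself did not pass (0.31, edgeR adjusted p 0.324). The number of these genes called higher was 4 without lymphoma 53 and 2 without lymphoma 34, 56 or 86.

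**Figure D5:**
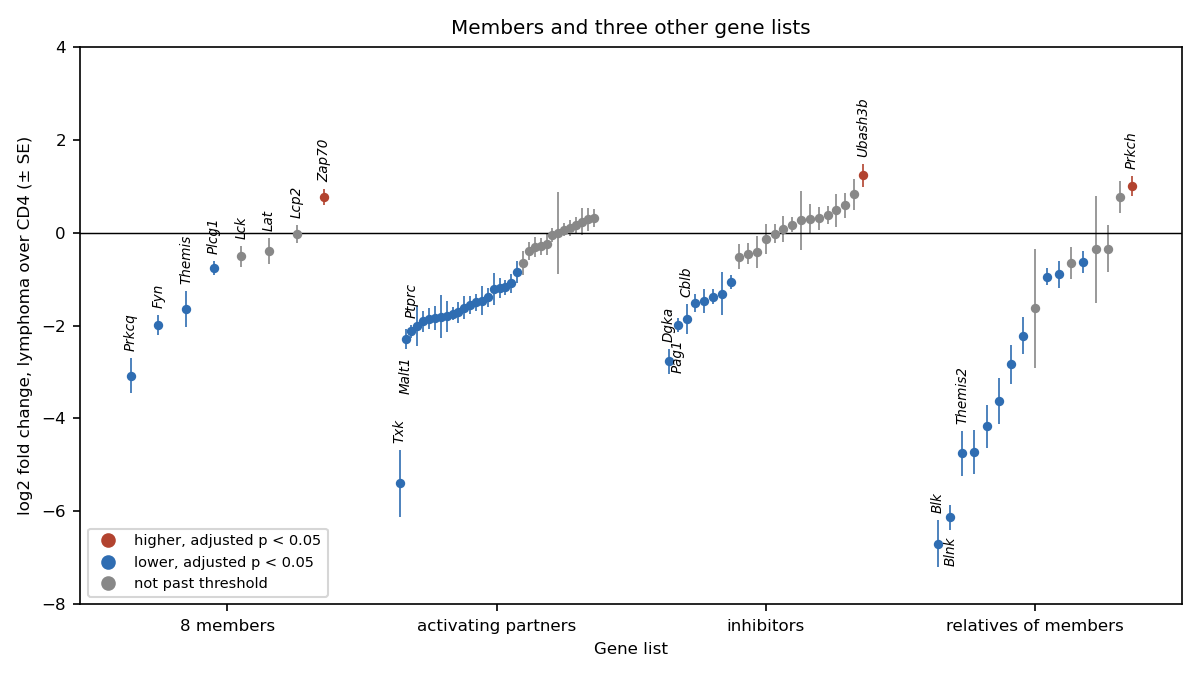
Log2 fold change with SE (vertical axis, lymphoma over CD4) of the 8 genes and of the tested activating partners (34), inhibitors (23) and relatives (17), sorted within each list; red is higher, blue lower and grey not past an adjusted p of 0.05. Zap70, Ubash3b and Prkch are the only genes in red.

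The genes whose log2 CPM followed each of the 8 most closely over the 9 libraries were looked up among 8824 other genes with an average log2 CPM of at least 3. Such correlations take in both the difference between the groups and the spread within them, and are given as a description. Fyb, an activating partner, followed Plcg1 (Pearson r = 0.985), next to RP23-371A16.4 (0.987). Prkcq was followed by Ms4a4b (0.993) and Mbnl1 (0.991), Fyn by Pde4dip (0.992) and Lsp1 (0.992), and Zap70 by Ncbp1 (0.994). Themis was followed by Gm6542 (0.986) and Cic (0.985), Lat by Dbnl (0.984) and Tuba1a (0.969), Lck by Mdp1 (0.975), behind a gene model named only by its clone (0.983), and Lcp2 by Zfp654 (0.967) and Zfr (0.949).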

How the data were processed

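Per the file headers, the authors deposited 1 table of raw read counts per Ensembl gene, with a symbol beside each ID and 5 closing rows of unassigned reads. HISAT2, SAMtools, HTSeq and FastQC and the builds mm10 and GRCm38 are named in the submitters' processing notes; versions, annotation release and strand setting are not given in the sources used here. The closing rows were left out, which kept 38.7 to 49.1% of reads in lymphoma and 27.8 to 35.0% in CD4. All 9 columns matched a sample title.

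Genes passing filterByExpr (minimum count 10) were scaled by TMM and tested in edgeR 4.0.16 (R 4.3.3) with glmQLFit (robust) and glmQLFTest, lymphoma over CD4, with no covariate. SE was taken as |log2 fold change| over the square root of F, and 95% intervals use the fit's degrees of freedom. Log2 CPM used a prior count of 2. Ratios were compared by exact permutation. DESeq2 1.42.0, limma 3.58.1 (voom), other scalings and filters, each library left out, lymphomas 34, 70 and 72 averaged, and offsets for GC content and length (GENCODE M21, GRCm38) were alternatives. The script was tested on simulated data. No 2 libraries agreed within sampling noise (chi-square per degree of freedom at least 20.7). Named genes are the 8 genes, the 3 largest rises and falls past the threshold in each list, the genes of the ratios and the 2 closest correlates; further genes are named as members of those lists. Some genes that this rule or the lists hold are not reported here. The 8 genes and all lists were chosen with earlier results of these data known. Promoters are from RefSeq, GRCm38.p6, which matched all 8 symbols. Counting floors are 3 counts and cover counting error only.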

Additional observations from a re-analysis of the deposited data

Results flagged for a closer look

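Of 35 measures over the 6 lymphomas, 9 had an extreme library far from its neighbour by Dixon's test at the 95% level. For separate, normally spread measures chance gives about 1 in 20, or 1.75. Several measures share genes, so the 9 are not separate and are not weighed against that number. Of the 9, 7 concern lymphoma 53. Lat stood at 540 CPM in lymphoma 53 against 185 to 265 CPM in the other 5, and the Lat2 to Lat log2 ratio, with Lat2 at 0 counts, was therefore -11.8 against -10.7 to -10.2. Txk was at 29.7 CPM in lymphoma 53 against 2.77 to 5.26 CPM, and Dgka at 20.97 CPM against 44.7 to 57.9 CPM. Summed T cell markers reached 2946 CPM there, B cell markers 69.4 CPM and plasmacytoid dendritic cell markers 346 CPM, against at most 1883, 41.1 and 109 CPM in the others. Single genes made up much of each of these sums, with Thy1 at 1532 CPM, Cd74 at 57.0 CPM and Irf8 at 268 CPM in lymphoma 53. Its summed Cd3d, Cd3e, Cd3g and Cd247, at 973 CPM, stood below the 1013 CPM of lymphoma 70, and Siglech was at most 0.367 CPM in any lymphoma. Summed myeloid markers stood at 2224 CPM in lymphoma 56, where the others had 82.9 to 841 CPM, and summed erythroid markers at 400.5 CPM in lymphoma 86, where the others had 17.9 to 114 CPM. Most of the first sum was S100a8 and S100a9, at 1034 and 987 CPM in lymphoma 56. Most of the other was the globin genes Hba-a1 and Hbb-bt, at 261 and 123 CPM in lymphoma 86.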

How the results depend on the processing

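Of 152 values of the 8 genes over 19 alternatives, 137 kept direction and side of the threshold; Fyn, Plcg1 and Prkcq did so in all 19, and Txk, Malt1, Ptprc, Ubash3b, Dgka, Pag1, Cblb, Prkch, Blk, Blnk and Themis2 (11 genes) in all 207 of their values; other named genes were not run singly. With the GC and length trend removed Zap70 was 0.36 and Themis -1.01, both past the threshold no longer, Lck -0.80 and Lat -0.74, both now past it, and 0 of the 8 genes were called higher, as also at 2-fold. Lck passed with upper quartile scaling (-0.62), at least 10 counts in every library (-0.58) and DESeq2 (-0.57). Lcp2 was 0.034 when scaled to Cd3 chains. The cause of these shifts was not tested. Leaving out 1 library gave -0.64 to -0.39 for Lck, -0.69 to -0.27 for Lat and -0.13 to 0.079 for Lcp2, which turned positive without lymphoma 34, 53 or 86 or CD4 2 or 3; it gave 1 to 4 inhibitors and 1 to 2 relatives called higher (2 without CD4 3). Inhibitors called higher were 2 with DESeq2, 3 with the GC and length trend removed and 2 when scaled to Cd3 chains, and relatives 2 with the GC and length trend removed.

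No paired analysis was possible because the groups share no replicate number. Averaging lymphomas 34, 70 and 72 was an alternative setting, and the labels do not mark these libraries as related. Lymphoma 34 was as close to lymphoma 56 (r = 0.953) as to lymphoma 70 (r = 0.953). With lymphomas 34, 70 and 72 averaged, the 4 against 3 libraries cannot reach an exact p under 0.0571; the differences were -1.26 (Fyn to Lck), -5.47 (Syk to Zap70), -2.66 (Lat2 to Lat, a value set by the prior count, -4.44 at a prior count of 0.5, and not read), -5.83 (Blnk to Lcp2), -1.58 (Plcg2 to Plcg1), 1.85 (Prkcb to Prkcq), 3.87 (Prkch to Prkcq) and -3.04 (Themis2 to Themis). Leaving out 1 CD4 library likewise cannot pass. Over all libraries left out the ranges were, in the same order, -1.61 to -1.29, -6.0 to -5.42, -2.93 to -2.14, -6.16 to -5.79, -1.78 to -1.27, 1.92 to 2.44, 3.98 to 4.52 and -3.25 to -2.49. Plcg2 to Plcg1 also lost its call without lymphoma 53, 56, 70, 72 or 86 (adjusted exact permutation p 0.0714), where the other 7 ratios kept theirs (0.0408). A Prkcq value rests on at least 110 counts, so for Prkcq counting error is small beside the spread between libraries. This does not extend to all ratios. Lymphoma counts went down to 15 for Syk, 10 for Blnk and 3 for Themis2.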
